A study of Mus musculus with 4 samples.

Results

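The 8 genes described here are the MHC class II genes H2-Aa, H2-Ab1, H2-Eb1, H2-DMa, H2-DMb1 and H2-DMb2, together with Ciita and Cd74. They were taken by symbol from the 31053 genes of the deposited matrices, and all 8 were present once. They were proposed with their difference between efferocytic and non-efferocytic BM macrophages already known. Their values in that comparison are therefore a description, and no test is given for them.

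BM macrophages from the femur and tibia of male C57BL/6J mice had been cultured for 4 days with M-CSF. This growth factor drives macrophage differentiation. The mice were 4 to 6 weeks old by the general methods, and 4 weeks old by the study's legend on the single-cell experiments. Efferocytic cells came from co-culture for 16 to 18 h with apoptotic RM1 cells, a Ras and Myc induced mouse prostate cancer line of C57BL/6J origin that had been killed by UV light and labeled with the dye CFSE, and were sorted as F4/80+CFSE+. Non-efferocytic cells were sorted as F4/80+ only. The methods describe the co-culture and then the collection of both kinds, whereas the study's discussion calls the non-efferocytic cells BM macrophages alone. Whether these had met apoptotic RM1 cells is thus unclear. Each of 2 experiments gave 1 library of each kind, 4 in all. The sort for F4/80, a macrophage surface protein, sets which cells could enter, and how many mice were pooled in each library is not given in the sources used here, where the methods state only that several independent mice per group served the BM macrophage work as a whole. RM1 cells and the macrophages share a mouse background, so that RNA of an engulfed RM1 cell cannot be told apart from macrophage RNA for a gene that both express.

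A barcode was kept as a cell if it had at least 200 genes, 1000 or more UMIs (unique molecular identifiers, each marking 1 captured RNA molecule) and no more than 10% of mitochondrial UMIs. They numbered 8280 non-efferocytic and 6695 efferocytic in Experiment 1, and 13411 and 8408 in Experiment 2, with 101216659 to 155224183 UMIs a library. Efferocytic cells were deeper, with a median of 17171 and 17475.5 UMIs against 11146 and 9600. The libraries of Experiment 2 shared 118 cell barcodes, while the other pairs shared 14 to 23. Experiment 2 had 36048 barcodes of at least 500 and under 1000 UMIs in its non-efferocytic library, against 1048 to 2046 in each of the others. The level of a gene is its share of all UMIs in a library's cells, scaled to 1000000 (CPM). Macrophage markers summed to 24876 to 41048 CPM over 10 genes. Of the dendritic cell markers Flt3, Xcr1, Clec9a and Cd209a, and of the B cell markers Pax5, were each below 0.1 CPM in every library. Other markers of these cells were higher. Zbtb46 reached 0.237, Ccr7 0.145 and Siglech 0.427 CPM. Fscn1 was at 0.952 to 3.87 and Batf3 at 6.06 to 16.2 CPM. Of the B cell markers Cd79b was at 2.38 to 4.17 and Ebf1 at 1.11 to 2.18 CPM.

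MHC class II molecules are pairs of an alpha and a beta chain that carry peptides of swallowed proteins to the cell surface, where CD4 T cells read them. H2-Aa and H2-Ab1 encode the chains of I-A, and H2-Eb1 encodes the beta chain of I-E. C57BL/6 mice make no I-E alpha chain, so that their H2-Eb1 RNA has no surface partner. Cd74 encodes the invariant chain, which holds the groove of a new class II molecule closed and guides it to endosomes, and which is also a surface receptor for the cytokine MIF. H2-DMa with H2-DMb1 or H2-DMb2 encodes H2-M, which removes the last fragment of the invariant chain and helps peptide load. Ciita encodes the coactivator that switches this set of genes on, without binding DNA itself. It docks on the RFX complex, CREB and NF-Y, which sit on the X and Y boxes just upstream of class II genes. In macrophages, interferon gamma is its best known inducer.

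In GENCODE vM21 on GRCm38, the 6 MHC genes lie on chromosome 17, between the start of H2-DMa at 34119541 and the end of H2-Eb1 at 34316674. Upstream sequence from RefSeq on GRCm38.p6 was at hand for 5 of the 8 genes, and not for H2-Ab1, Ciita or Cd74. The 250 bases before each start were searched on both strands for TGATTGG, the core of the Y box that NF-Y binds, AACNGATG, a core of the X box, and TGACGTCA, the CREB site. TGATTGG occurred in 7.23% of all 32851 upstream sequences of that length, AACNGATG in 1.98% and TGACGTCA in 1.55%. AACNGATG with TGATTGG following on the same strand within 40 bases occurred in 7 of them, or 0.0213%, among them those of H2-Eb1, H2-DMb1, H2-DMb2 and the related H2-Eb2. The search letters are a description of the sequence and show no binding. The stretch from 140 to 16 bases before the start is shown for the genes that display these boxes, with the matches in capitals. It spans chr17:34287839-34287963 on the minus strand for H2-Aa, chr17:34305727-34305851 on the plus strand for H2-Eb1 and chr17:34145109-34145233 on the plus strand for H2-DMb2.
H2-Aa: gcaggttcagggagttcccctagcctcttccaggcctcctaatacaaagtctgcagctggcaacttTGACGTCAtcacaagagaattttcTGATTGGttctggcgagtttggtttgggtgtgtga
H2-Eb1: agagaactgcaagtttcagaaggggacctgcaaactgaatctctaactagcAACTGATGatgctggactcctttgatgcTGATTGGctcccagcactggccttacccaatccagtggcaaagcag
H2-DMb2: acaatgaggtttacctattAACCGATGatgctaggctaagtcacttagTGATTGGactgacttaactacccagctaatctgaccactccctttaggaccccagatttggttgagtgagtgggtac

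In H2-Aa the CREB letters began 74 bases before the start and TGATTGG 50 bases before it, with no AACNGATG. In H2-DMb1 the pair stood 92 and 63 bases before the RefSeq start. None of the letters searched occurred before either of the 2 listed starts of H2-DMa. The H2-DMb1 stretch is not printed because the GENCODE gene starts within it, at 34153072, before the RefSeq start at 34153191. The H2-DMb2 stretch lies in an intron of the longest GENCODE transcript, which starts at 34143307, upstream of the RefSeq start at 34145249.

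All 8 genes had a lower level in the efferocytic library than in the non-efferocytic library of the same experiment. In order from the non-efferocytic to the efferocytic library, H2-Aa measured 55.8 and 3.87 CPM in Experiment 1, and 116 and 12.6 CPM in Experiment 2. H2-Ab1 measured 70.9 and 4.91 CPM in Experiment 1, and 128 and 11.5 CPM in Experiment 2. H2-Eb1 measured 36.9 and 2.30 CPM in Experiment 1, and 88.6 and 8.54 CPM in Experiment 2. The chains of I-A and I-E were thus lower by 14.4-fold to 16.0-fold in Experiment 1 and by 9.22-fold to 11.2-fold in Experiment 2. On the log2 scale these ratios of CPM were −3.85 to −4.00 and −3.20 to −3.48. In UMIs per cell they were smaller, at −3.24 to −3.39 and −2.37 to −2.64.

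Cd74 lies on chromosome 18 at 60803848 to 60812652 and Ciita on chromosome 16 at 10480059 to 10528418, away from the MHC. Cd74 measured 323 and 27.4 CPM in Experiment 1, and 566 and 62.5 CPM in Experiment 2, lower by 11.8-fold and 9.05-fold. Ciita was a rare transcript, at 6.60 and 0.568 CPM in Experiment 1, and 7.91 and 0.425 CPM in Experiment 2. Its counts were 668, 71, 1094 and 66 UMIs in these libraries, and its level was lower by 11.6-fold and 18.6-fold. Ciita was thus lower by more than the chains in Experiment 2 and by less in Experiment 1. In UMIs per cell the log2 ratios were −2.95 and −2.34 for Cd74, and −2.93 and −3.38 for Ciita. The sizes for the chains, Cd74 and Ciita depend on how much is taken away as free RNA. With 10% of the UMIs removed as such, the chains and Ciita were at 0 in the efferocytic libraries of both experiments, and Cd74 was at 0 in Experiment 1 and at a log2 ratio of −4.51 in Experiment 2.

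The H2-M genes differed by less. H2-DMa measured 56.9 and 20.4 CPM in Experiment 1, and 67.0 and 17.1 CPM in Experiment 2, lower by 2.79-fold and 3.91-fold. H2-DMb1 measured 34.9 and 16.6 CPM in Experiment 1, and 45.3 and 17.6 CPM in Experiment 2, lower by 2.11-fold and 2.57-fold. H2-DMb2 was close to absent, with 76, 48, 114 and 76 UMIs in the non-efferocytic and efferocytic libraries of Experiment 1 and of Experiment 2. Its levels were 0.751, 0.384, 0.824 and 0.490 CPM. For H2-DMb2 the direction depended on the scale, since its UMIs per cell differed by −0.36 on the log2 scale in Experiment 1 and by 0.09 in Experiment 2, while the other 7 genes stayed lower per cell in both experiments. The longest H2-DMb1 and H2-DMb2 transcripts share an unbroken run of 221 bases, but at most 34 within their last 500 bases, where reads of a 3′ kit fall. How reads that fit both were counted is not known for these genes, and H2-DMb2 is given as uncertain.

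**Figure D1:**
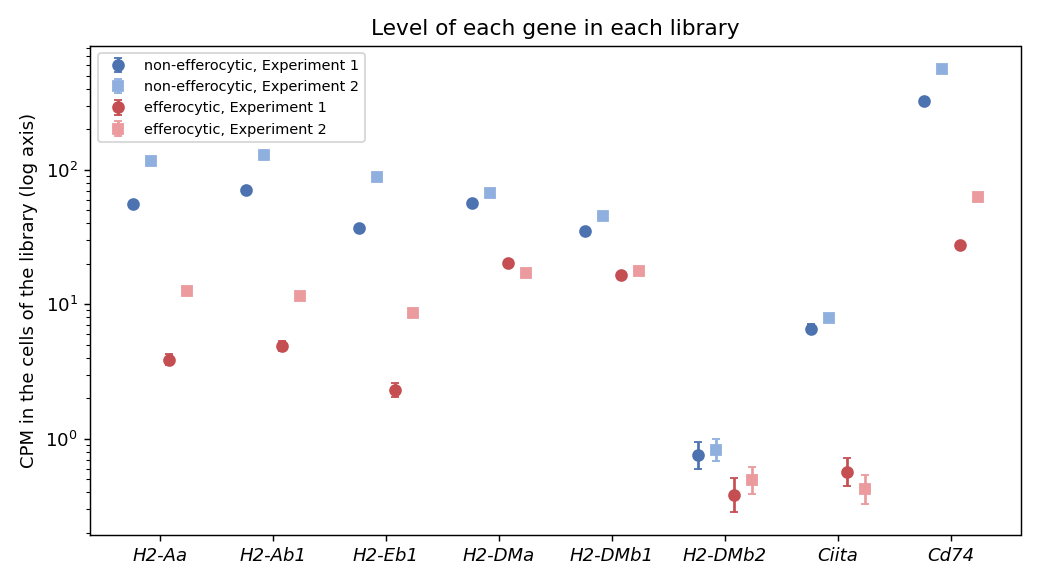
Level in CPM (log axis) of each of the 8 genes in the 4 libraries, with exact 95% Poisson intervals that cover counting error only. In every gene the red points of the efferocytic libraries lie below the blue points of the non-efferocytic libraries, from 55.8 and 116 against 3.87 and 12.6 CPM for H2-Aa to 34.9 and 45.3 against 16.6 and 17.6 CPM for H2-DMb1.

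Fold changes were fitted with edgeR over 13869 genes with the experiment as a block. In that fit 19.0% of all genes were called lower and 19.9% higher at an adjusted p of 0.05. The members' values are listed without calls, since the same contrast chose them. The fitted log2 fold change was −3.77 ± 0.20 (SE, 2 libraries a group) for Ciita, −3.55 ± 0.10 for H2-Ab1, −3.55 ± 0.13 for H2-Eb1, −3.40 ± 0.13 for H2-Aa and −3.26 ± 0.12 for Cd74. H2-DMa followed at −1.62 ± 0.13, H2-DMb1 at −1.11 ± 0.10 and H2-DMb2 at −0.75 ± 0.23. The median was −3.33 over the 8 genes and −0.02 over all genes tested. Counted from the most negative of all 13869, Ciita stood at position 13, H2-Ab1 at 16, H2-Eb1 at 17, H2-Aa at 27 and Cd74 at 31, while H2-DMa stood at 451, H2-DMb1 at 1073 and H2-DMb2 at 1869.

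The difference between the experiments was large for the same genes. Non-efferocytic H2-Aa was 85.8 ± 42.4 CPM (SD, n = 2 libraries) and efferocytic H2-Aa 8.22 ± 6.15 CPM, whereas H2-DMa was 62.0 ± 7.15 and 18.8 ± 2.31 CPM. H2-Aa, H2-Ab1, H2-Eb1 and Cd74 were higher in Experiment 2 than in Experiment 1 in both groups. Ciita was 7.25 ± 0.925 CPM in non-efferocytic and 0.497 ± 0.101 CPM in efferocytic libraries and did not follow that order. With 2 libraries a group, an exact two-sided permutation test of a single gene that ignores the experiments could reach no p below 0.333. Swaps within experiments only would leave fewer arrangements.

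Class II RNA was concentrated in few cells. Summed over the 8 genes, the level was 586 CPM in non-efferocytic and 76.4 CPM in efferocytic cells of Experiment 1, and 1019 and 131 CPM in Experiment 2. The 10% of cells with the most of these UMIs held 83.1, 68.1, 86.9 and 83.8% of them in the same order. Single cells reached 974, 472, 1519 and 905 UMIs. Cells without any UMI of the 8 genes were thus found beside cells rich in them.

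Deeper cells show more genes, so each cell was thinned at random to 5000 UMIs for shares of cells. This left out 1099 and 3404 shallower non-efferocytic cells and 544 and 505 efferocytic cells. At equal depth 41.5% of non-efferocytic and 19.1% of efferocytic cells had a UMI of any of the 8 genes in Experiment 1, and 47.8% and 17.8% in Experiment 2. Before thinning the shares were 55.8, 44.1, 58.8 and 41.1% in the same order, so that the difference was larger at equal depth.

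An H2-Aa UMI was found in 7.97% of thinned non-efferocytic and 0.797% of efferocytic cells in Experiment 1, and in 11.4% and 1.21% in Experiment 2. The shares of cells with H2-Ab1 were 10.5% and 1.37%, and 14.2% and 1.52%. Those with Cd74 were 23.3% and 4.94%, and 30.2% and 5.31%. Ciita was seen in 2.97% and 0.309%, and in 3.23% and 0.215%. The exact 95% binomial intervals of such shares cover counting error only, as the cells of 1 library are not replicates. H2-DMa was found in 20.4% and 8.60%, and in 22.5% and 7.49%, and H2-DMb1 was found in 14.3% and 7.64%, and in 15.3% and 7.67%. In efferocytic cells these 2 genes were seen in more cells than any other member. H2-DMb2 was in 0.362% and 0.211%, and in 0.350% and 0.202%, with overlapping intervals in both experiments.

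**Figure D2:**
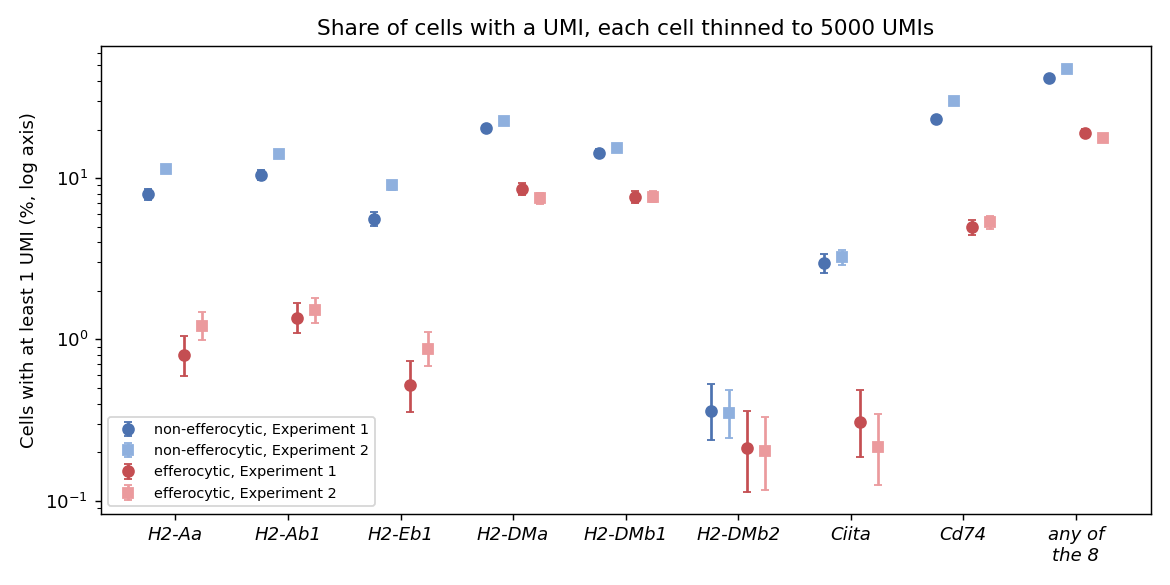
Share of cells with at least 1 UMI of each gene (%, log axis) after every cell was thinned to 5000 UMIs, with exact 95% binomial intervals, in the 4 libraries. The efferocytic libraries lie 9.39-fold to 10.7-fold lower for H2-Aa and H2-Eb1, as much as 15.0-fold lower for Ciita and 1.87-fold and 2.00-fold lower for H2-DMb1, and their intervals overlap with the non-efferocytic ones for H2-DMb2.

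The levels were also split into the share of cells with a UMI and the UMIs of such a cell. Over the 8 genes, the median log2 ratio of efferocytic to non-efferocytic was −2.59 in Experiment 1 and −2.87 in Experiment 2 for the share of thinned cells, and −0.31 and −0.09 for the UMIs per cell with a UMI. The second measure cannot fall below 1, and it was already 1.03 to 1.49 in non-efferocytic cells for H2-DMa, H2-DMb1, H2-DMb2 and Ciita, so that the medians do not weigh the measures against each other. H2-Aa counted 3.24 UMIs per thinned cell with a UMI in non-efferocytic and 2.47 in efferocytic cells of Experiment 1, and 4.61 and 5.32 in Experiment 2. Cd74 differed most by this measure, with 6.73 UMIs in non-efferocytic against 2.62 in efferocytic cells of Experiment 1, and 8.76 against 5.70 in those of Experiment 2.

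The thinned cells were next grouped by their summed UMIs of the 8 genes. Cells with 10 or more were 522 of 7181 (7.27%) among non-efferocytic and 24 of 6151 (0.390%) among efferocytic cells in Experiment 1. In Experiment 2 they were 1035 of 10007 (10.3%) and 62 of 7903 (0.785%). These cells held 72.8% of the members' UMIs in the non-efferocytic library of Experiment 1 and 82.0% in that of Experiment 2, against 24.8% and 60.5% in the efferocytic libraries. Cells with 1 to 2 of the UMIs were 24.9% and 16.8% in Experiment 1, and 27.3% and 15.3% in Experiment 2. Of the 4 groups, the class II rich cells were the one whose share differed by the largest ratio between efferocytic and non-efferocytic libraries.

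**Figure D3:**
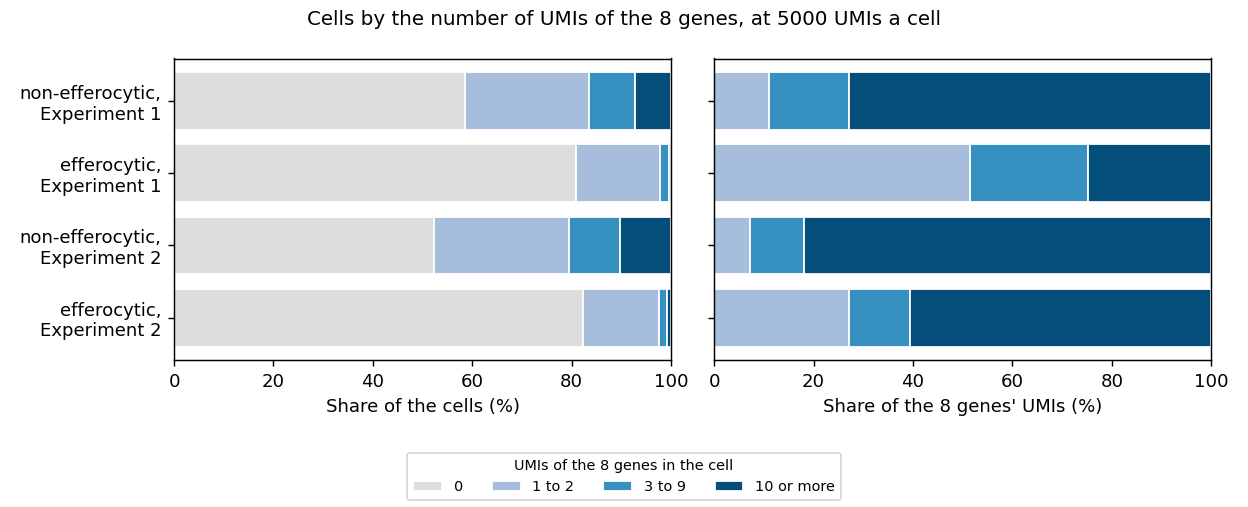
Left, share of cells (%) with 0, 1 to 2, 3 to 9 or 10 or more UMIs of the 8 genes after thinning to 5000 UMIs, and right, the share of the 8 genes' UMIs (%) that each group of cells held, for the 4 libraries. The darkest bars show that cells with 10 or more UMIs were 7.27% and 10.3% of non-efferocytic but 0.390% and 0.785% of efferocytic cells, and that they held most of the UMIs in 3 of the 4 libraries.

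The detection of single members within that group varied between libraries. In cells with 10 or more UMIs, H2-Ab1 was detected in 84.9% of non-efferocytic and 83.3% of efferocytic cells in Experiment 1, and in 84.3% and 90.3% in Experiment 2. H2-DMa was detected in 74.3% and 79.2%, and in 71.7% and 71.0%. H2-Aa was detected in 73.6% and 66.7%, and in 76.2% and 87.1%, and H2-Eb1 in 59.4% and 45.8%, and in 67.9% and 74.2%. H2-DMb1 was detected in 48.9% and 54.2%, and in 55.6% and 41.9%. Ciita was found in 16.9% and 4.17% in Experiment 1, the latter being 1 of 24 cells, and in 17.7% and 17.7% in Experiment 2. Cd74 held 16.9 and 12.2 UMIs a cell in Experiment 1, and 21.5 and 28.6 in Experiment 2, so that its order changed between experiments. The group was defined by these UMIs, and the values describe it.

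Most markers of other antigen presenting cells were at or near 0 in these cells, but not all. Flt3, Xcr1, Ccr7 and Zbtb46, which mark dendritic cells and their migration, had a UMI in 0% of them in all 4 libraries, and Clec9a and Cd209a in at most 1.61%. Batf3, a transcription factor of dendritic and other myeloid cells on the same list, was in 10.7% and 12.1% of non-efferocytic and 16.7% and 16.1% of efferocytic class II rich cells, against 5.14, 6.48, 2.69 and 3.63% of cells with no UMI of the 8 genes. The B cell genes Pax5 and Cd79a were at 0%. Cd79b, the partner of Cd79a in the B cell receptor, was in 3.64% and 3.96% of non-efferocytic and 12.5% and 3.23% of efferocytic class II rich cells, where 12.5% is 3 of 24 cells, against 1.40, 1.24, 1.06 and 1.06% of cells with none. A count of 0 allows a share of cells with a UMI, though not of cells of that type, of up to 0.575% of the 522 and 0.290% of the 1035 non-efferocytic cells, and of up to 12.5% of the 24 and 4.84% of the 62 efferocytic cells (3 counts of the total, for counting error only). Over all cells the 10 dendritic cell markers summed to 16.5 (non-efferocytic) and 7.10 CPM (efferocytic) in Experiment 1, and to 20.9 and 8.85 CPM in Experiment 2. Of these sums Batf3 alone gave 12.4, 6.06, 16.2 and 7.57 CPM. The 8 B cell markers summed to 6.28, 4.17, 6.64 and 3.94 CPM in that order. Both lists moved with the class II genes, and their part in the difference was not tested.

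Macrophage genes were detected in class II rich cells. Adgre1, which encodes F4/80, was detected in 91.0% and 88.6% of non-efferocytic and 70.8% and 82.3% of efferocytic class II rich cells, against 86.8, 83.2, 80.2 and 78.3% of cells with no UMI of the 8 genes. Csf1r, the M-CSF receptor, was in 98.7, 96.0, 75.0 and 82.3% of class II rich cells. Mertk, a receptor for apoptotic cells on the same list, was seen less often in class II rich cells than in those with none. Its shares were 27.4% against 28.3% and 19.0% against 23.0% in the non-efferocytic libraries. In the efferocytic ones they were 12.5%, or 3 of 24 cells, against 23.6%, and 14.5% against 19.1%. In Experiment 1 cells with 3 to 9 of the UMIs had it more often than those with none, at 31.5% (non-efferocytic) and 28.3% (efferocytic). These differences were not tested. Ccr2, the chemokine receptor of inflammatory monocytes, was in 18.2% and 32.8% of non-efferocytic and 12.5% and 21.0% of efferocytic class II rich cells, against 3.07, 4.42, 1.18 and 1.17% of cells with none. The monocyte genes Ly6c2 and Plac8 were at 0 to 1.61% of class II rich cells. The 6 monocyte markers summed to 71.4 (non-efferocytic) and 26.9 CPM (efferocytic) in Experiment 1, and to 79.8 and 16.8 CPM in Experiment 2, so that this list moved with the class II genes. The 10 genes of the neutrophil lineage summed to 3075 and 962 CPM in Experiment 1 and to 3384 and 719 CPM in Experiment 2, and the 6 fibroblast genes to 144 and 46.1, and to 120 and 52.3 CPM. The T and NK cell genes summed to 1.65 and 0.552, and to 3.51 and 2.29 CPM, and those of eosinophils, basophils and mast cells to 0.168 and 0.0880, and to 7.70 and 0.0193 CPM. The sum of every marker list, that of macrophages included, was thus lower in the efferocytic library of both experiments. Of the macrophage sums Lyz2 alone gave 32096 and 25878 CPM in Experiment 1, and 27537 and 18678 CPM in Experiment 2. Cd68 on that list was higher in efferocytic libraries, at 964 and 1334 CPM, and at 987 and 1477 CPM. The part of these lists in the class II difference was not tested.

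Members were found together in single cells. Of thinned cells with an H2-Aa UMI, 90.2% and 86.6% of non-efferocytic and 83.7% and 87.5% of efferocytic cells also had Cd74. H2-Ab1 was found in 71.2, 68.1, 46.9 and 69.8% of these H2-Aa cells. In the non-efferocytic library of Experiment 1, H2-Aa and H2-Ab1 shared 407 cells, where the product of their shares would give 60.0, and in the efferocytic library they shared 23, where it would give 0.669. In Experiment 2 they shared 778 against 162 non-efferocytic, and 67 against 1.46 efferocytic cells. The alpha and beta chains of I-A thus shared more cells than that product in all 4 libraries.

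H2-DMa and H2-DMb1, the partners of H2-M, shared a number of cells closer to that product. It was 409 cells against a product of 209 in non-efferocytic and 63 against 40.4 in efferocytic cells of Experiment 1, and 690 against 346 and 86 against 45.4 in Experiment 2. Of cells with H2-DMa, 51.1% and 59.9% of non-efferocytic but 15.9% and 20.9% of efferocytic cells also had Cd74. Of cells with Ciita, 66.2% and 79.9% of non-efferocytic cells had Cd74, and 8 of 19 and 13 of 17 of efferocytic cells. H2-DMa and Cd74 shared 749 cells against a product of 342 in non-efferocytic and 84 against 26.1 in efferocytic cells of Experiment 1, and 1350 against 680 and 124 against 31.5 in Experiment 2. The lower percent in efferocytic cells thus went with fewer cells with Cd74, and the shared cells exceeded the product in all 4 libraries.

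**Figure D4:**
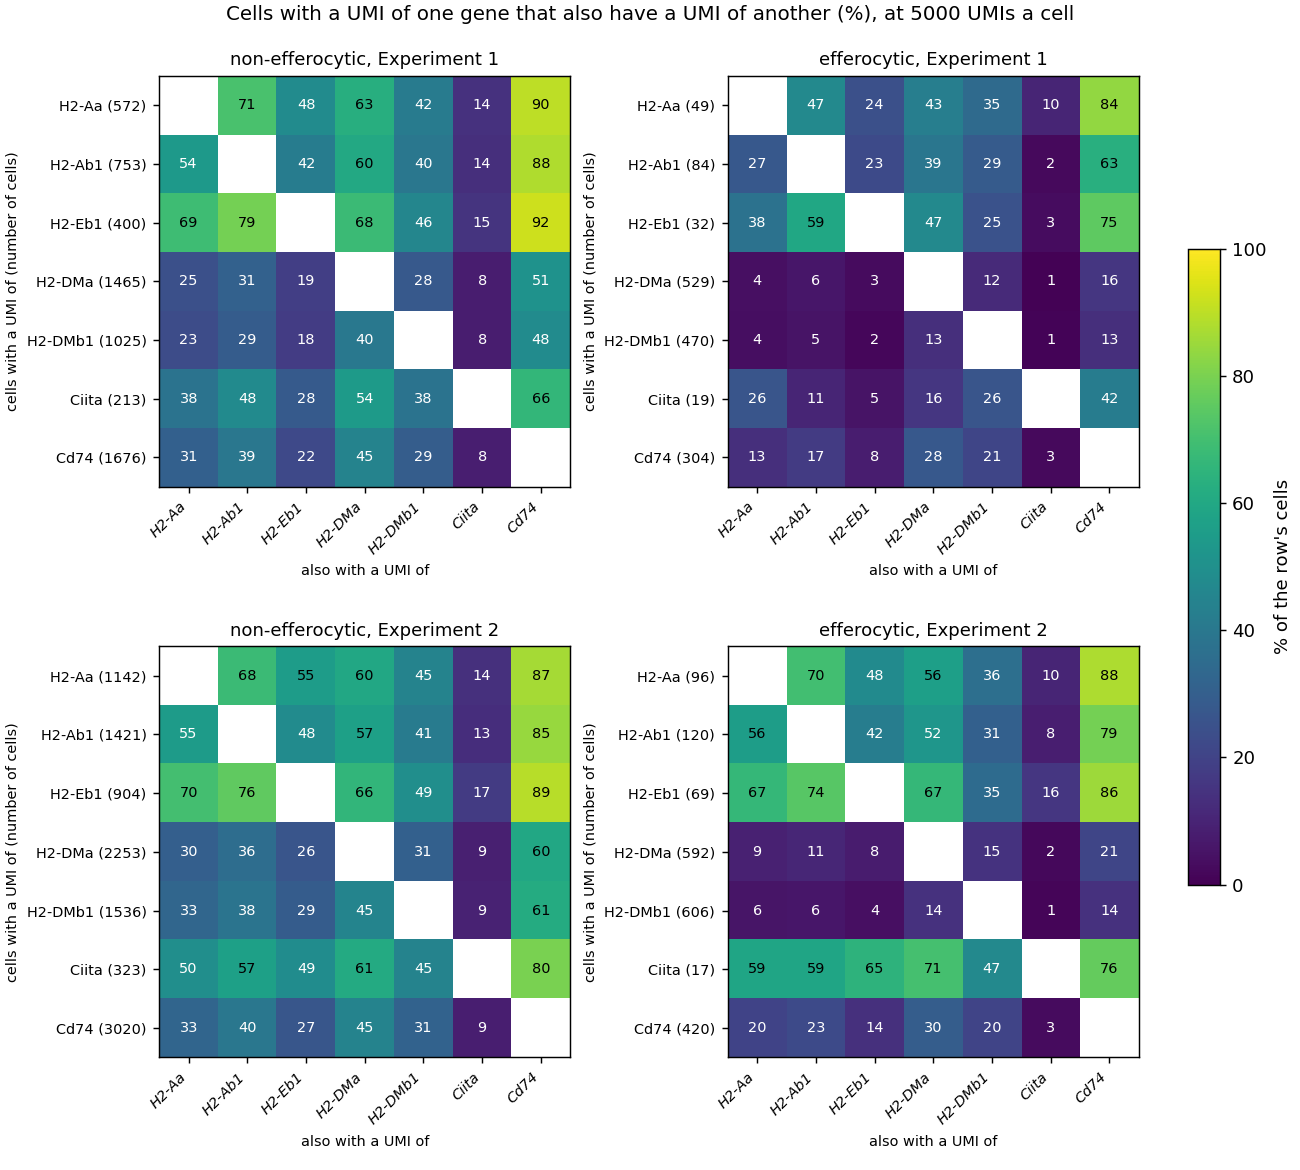
For each library, the percent of thinned cells with a UMI of the row's gene (number of such cells in parentheses) that also had a UMI of the column's gene, for 7 of the 8 genes; H2-DMb2, in 35 cells or fewer, is left out. The column of Cd74 is bright for H2-Aa in all 4 libraries, at 83.7 to 90.2%, while for H2-DMa it drops from 51.1% and 59.9% in non-efferocytic to 15.9% and 20.9% in efferocytic cells.

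The make-up of the members' RNA shifted accordingly. Cd74 supplied 55.1% and 55.5% of the 8 genes' UMIs in non-efferocytic and 35.9% and 47.8% in efferocytic libraries. H2-DMa and H2-DMb1 supplied 9.72% and 5.96% in the non-efferocytic and 26.7% and 21.7% in the efferocytic library of Experiment 1. In Experiment 2 they supplied 6.58% and 4.44%, and 13.1% and 13.5%.

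Class II RNA was also present in barcodes not kept as cells. Barcodes of at most 100 UMIs were taken to hold free RNA and no cell, which was not tested. They carried the 8 genes at 1879 CPM (non-efferocytic) and 1915 CPM (efferocytic) in Experiment 1, and at 1309 and 928 CPM in Experiment 2. These levels were above those of the cells in each of the 4 libraries. H2-Aa was at 317 and 351 CPM in such barcodes of Experiment 1, and at 193 and 157 CPM in those of Experiment 2. The level of H2-Aa in cells was 17.6% and 59.9% of that in non-efferocytic and 1.10% and 8.01% of it in efferocytic libraries. H2-DMb1 reached 115, 88.7, 69.1 and 51.2% in the same order, whereas H2-DMb2, with few UMIs, reached 3.51, 23.7, 1.35 and 15.6%. The source of the RNA in these barcodes, and its part in the low counts of single cells, was not tested.

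Shares of cells with 1 UMI were therefore compared with cells presumed to lack class II RNA, chosen by at least 10 UMIs of neutrophil granule genes or of collagen genes. Before thinning, H2-Aa had a UMI in 4 of 76 (5.26%) and 13 of 124 (10.5%) granule gene cells of the non-efferocytic libraries, with medians of 16165 and 15973 UMIs a cell, against 10.4% and 13.9% of all their cells. It was in 0 of 25 and 0 of 23 granule gene cells of the efferocytic libraries, against 1.76% and 2.43% of all cells, where 0 allows up to 12% and 13%. H2-Ab1, the other chain of I-A, was in 17.1% and 27.4% of non-efferocytic granule gene cells and in 5 of 25 and 8 of 23 efferocytic ones, above its 14.3, 17.1, 2.78 and 3.33% in all cells. In collagen gene cells H2-Aa was in 2 of 34 and 9 of 65 of the non-efferocytic and 0 of 16 and 2 of 29 of the efferocytic libraries, and 0 of 16 allows up to 18.8%. H2-DMa was in 44.7% and 38.7% of non-efferocytic and 32.0% and 56.5% of efferocytic granule gene cells, above its 32.7, 29.7, 23.8 and 20.8% in all cells. At 5000 UMIs, 22 of 71 and 51 of 114 non-efferocytic and 7 of 23 and 9 of 22 efferocytic granule gene cells had a UMI of any of the 8 genes, against 41.5, 47.8, 19.1 and 17.8% of all cells. Of collagen gene cells 6 of 34 and 17 of 48 non-efferocytic and 1 of 13 and 5 of 23 efferocytic cells had one. Cd74 was in 0 of 25 and 1 of 23 efferocytic granule gene cells, against 11.5% and 10.7% of all cells. The shares in these chosen cells were thus above those of all cells for some members and below them for others, and low shares are not read as expression. Efferocytic granule gene cells held H2-Ab1 at 12.3 and 28.7 CPM and Cd74 at 0 and 4.10 CPM. Barcodes of at most 100 UMIs of these libraries held H2-Ab1 at 259 and 170 CPM and Cd74 at 913 and 405 CPM. Whether the chosen cells lack class II RNA of their own was not tested. Of thinned granule gene cells, 1 of 71 and 7 of 114 non-efferocytic and 0 of 23 and 0 of 22 efferocytic cells had 10 or more of the UMIs, and of collagen gene cells 1 of 34, 1 of 48, 0 of 13 and 0 of 23.

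Cells with more class II UMIs also differed in other genes. Within each library the summed UMIs of the 8 genes were correlated, on a log scale over thinned cells, with each of 9477 genes seen in at least 1% of cells of every library. The points are cells of 1 library and share its depth, and the coefficients were small, with a median of −0.0076 and a 99th percentile of 0.0881 for the mean over the 4 libraries. The highest means were those of Cd52 at 0.255, Lsp1 at 0.212, Ccr2 at 0.196, Axl, a receptor of apoptotic cells, at 0.191, and the lysosomal protease Ctsh at 0.181. Lyz2, the macrophage lysozyme, followed at 0.178, then Rpl3 at 0.157, Fau at 0.153, Ifitm3 at 0.149 and Ly6e at 0.149. The lowest were Spp1, which encodes osteopontin, at −0.196, the lysosomal glycoprotein Gpnmb at −0.187, the proteases Ctsd at −0.180 and Ctsb at −0.155, and the scavenger receptor Cd36 at −0.166. Every gene named here had the same sign in all 4 libraries, which their choice by the mean over these libraries favors. Ccr2 ranged from 0.102 to 0.315 and Cd52 from 0.193 to 0.329.

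The remaining genes of the pathway were tested in the edgeR fit. Of 41 tested, 15 fell and 5 rose in efferocytic BM macrophages (adjusted p under 0.05 over all genes), that is 36.6% lower and 12.2% higher against the 19.0% and 19.9% of all genes given above. Their median log2 fold change was −0.19. The lists were chosen with earlier results of these data known, so that these shares are no independent evidence. Scaled by UMIs per cell the balance turned, with 3 lower and 17 higher, when 4.23% and 49.9% of all genes were. Without the experiment as a block 7 fell and 4 rose, when 7.74% of all genes were called lower and 9.27% higher. Every fit that left out a library, here and below, also had no block. Such a fit thus differs from the main one in both respects, and its changes cannot be assigned to the library alone. Leaving out either non-efferocytic library left none called, but then at most 2 of all genes tested were, so that this says nothing of the pathway. Leaving out the efferocytic library of Experiment 2 left 4 lower, when 4.04% of all genes were.

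Some proteases that cut antigen and invariant chain had a higher level. Of 9 genes of antigen processing tested, 8 of them proteases, 4 rose, 5 were not called and none fell, although the protease inhibitor Cst3 and the protease Ctsh were called lower when library totals were used without TMM, and Cst3 also without the efferocytic library of Experiment 1. The 4 are 44.4% of the list, against 19.9% of all genes. Ctsl, which trims the invariant chain, rose from 1098 to 2207 CPM in Experiment 1 and from 1391 to 2704 CPM in Experiment 2 (log2 fold change 1.09 ± 0.13, edgeR adjusted p = 8.1e-04). Ctsd rose by 0.67 ± 0.19 (adjusted p = 0.024), Ctsz by 0.67 ± 0.13 (0.0062) and the asparagine endopeptidase Lgmn by 0.43 ± 0.13 (0.032). Lgmn was not called without the experiment as a block (adjusted p = 0.056), nor with 10% of the UMIs removed as free RNA. It was likewise not called in a separate fit that left out genes under a mean of 10 CPM, or without any 1 of the 4 libraries. Ctss, the main protease of the last step of invariant chain removal, measured 4799 and 4879 CPM in Experiment 1, and 5150 and 4594 CPM in Experiment 2 (0.04 ± 0.17, adjusted p = 0.88). Ctss, Cst3 and Ctsh were named after their values were seen.

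Of the genes of class II turnover, March1, a ligase that marks class II molecules for degradation, fell from 24.3 to 9.03 CPM and from 26.0 to 8.42 CPM (−1.42 ± 0.10, edgeR adjusted p = 7.4e-05). Its relative March8 rose from 38.4 to 48.7 and from 37.4 to 55.4 CPM (0.56 ± 0.08, adjusted p = 0.0013). Cd83, which opposes March1, fell from 43.1 to 24.3 and from 43.3 to 25.9 CPM (−0.68 ± 0.07, adjusted p = 4.9e-04), but was at −0.06 and not called per cell.

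Of 21 genes that control class II transcription, 8 fell, none rose and 13 were not called. These 8 are 38.1% of the list, against 19.0% of all genes. Scaled by UMIs per cell, 1 fell and 6 rose, when 4.23% of all genes were called lower and 49.9% higher. Among the interferon pathway genes, Irf1, which drives Ciita in response to interferon gamma, fell from 21.3 to 13.5 and from 25.2 to 9.92 CPM (−0.89 ± 0.16, edgeR adjusted p = 0.0039). Ifngr1, a chain of the interferon gamma receptor, fell from 162 to 89.7 and from 163 to 98.6 CPM (−0.69 ± 0.08, adjusted p = 7.8e-04). Per cell Irf1 was at −0.27 and Ifngr1 at −0.07 on the log2 scale, neither of them called. With 10% of the UMIs removed as free RNA Irf1 was at −1.18 and not called. Prdm1, a repressor of Ciita, also fell, from 22.2 to 10.5 and from 17.2 to 4.56 CPM (−1.38 ± 0.19, adjusted p = 0.0012). Its log2 fold change was −2.03 without the efferocytic library of Experiment 1 and −0.75, not called, without that of Experiment 2, and it was not called without the block (adjusted p = 0.096). Irf8 fell by 0.50 (SE 0.10, adjusted p = 0.0063), Usf1 by 0.55 (SE 0.10, 0.0049) and Irf2 by 0.28 (SE 0.08, 0.022) in CPM, whereas per cell these 3 genes were higher by 0.12, 0.07 and 0.34 on the log2 scale, since efferocytic cells hold more UMIs. Without the block none of these 3 was called (adjusted p = 0.080 for Irf8, 0.10 for Usf1 and 0.068 for Irf2). Irf2 was also not called by DESeq2 or without the efferocytic library of Experiment 1. Without the efferocytic library of Experiment 2 none of Irf1, Irf2, Irf8 and Usf1 was called, and Irf8 was at −0.31 and Usf1 at −0.28. The factors that bind the boxes shown above were not called, apart from Rfxank. The subunits of NF-Y had log2 fold changes of 0.04 (Nfya), −0.08 (Nfyb) and 0.05 (Nfyc). Creb1 had −0.19, and the RFX genes Rfx5 and Rfxap had −0.34 and −0.06. None of them was called in this fit (edgeR adjusted p = 0.079 to 0.67). Creb1 and Rfx5 were called lower on library totals without TMM, and Nfya and Nfyc higher per cell. Creb1 was also called lower in the separate fit that left out genes under a mean of 10 CPM. These 6 genes, with Rfxank at −0.57 ± 0.11 (adjusted p = 0.0050, 0.05 per cell), were named for their role after their values were seen.

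Of 7 genes of costimulation and adhesion, 5 fell and none rose, or 71.4% of the list against 19.0% of all genes. Per cell 1 fell and 2 rose, beside the 4.23% and 49.9% of all genes. Of the 5, Cd80, Icosl and Pdcd1lg2, which are named after their values were seen, were not called without the block (adjusted p = 0.11, 0.10 and 0.082) or with 10% of the UMIs removed as free RNA, and Cd80 and Icosl not with 1% removed. Cd80 kept its call in 4 of 12 other settings with all 4 libraries, and was not called by DESeq2. Icam1, an adhesion molecule of the contact with T cells, fell from 23.2 to 14.8 and from 21.9 to 14.3 CPM (−0.53 ± 0.08, edgeR adjusted p = 0.0020), but was 0.09 higher on the log2 scale per cell, and was not called without the efferocytic library of Experiment 2. Cd86, a ligand of the T cell receptor CD28 that was named after its values were seen, fell from 9.04 to 3.34 and from 5.65 to 2.40 CPM (−1.23 ± 0.12, adjusted p = 2.8e-04), and was at −0.61 and not called per cell. Like Icam1, it was not called without the efferocytic library of Experiment 2. The other class II genes were hardly measured. H2-Oa, a chain of the H2-M inhibitor H2-O, had 5, 4, 19 and 16 UMIs in the non-efferocytic and efferocytic libraries of Experiment 1 and of Experiment 2 (−0.38 ± 0.51, adjusted p = 0.59). Its partner H2-Ob had 4, 1, 10 and 9 UMIs and was too low to test. H2-Eb2 had no UMI in any library, which allows up to 0.0193 to 0.0296 CPM, although its upstream sequence carries both boxes.

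**Figure D5:**
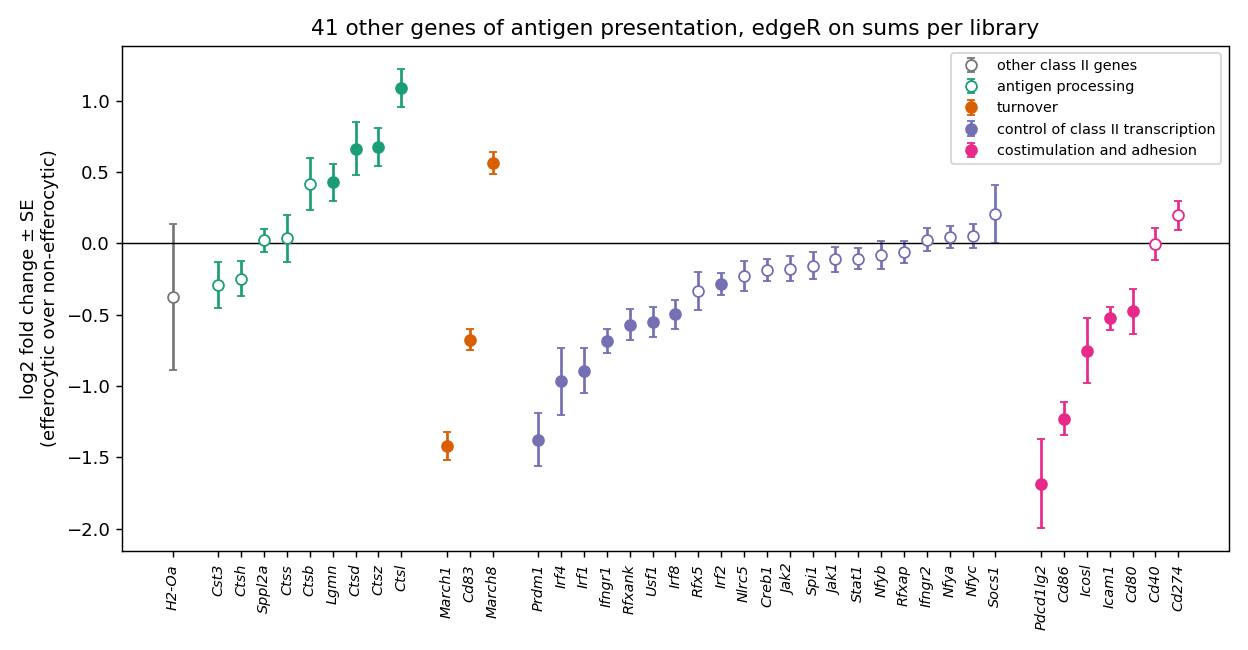
Fitted log2 fold change ± SE (efferocytic over non-efferocytic, 2 libraries a group) of the 41 other pathway genes tested, by list, with filled points at an adjusted p under 0.05. Antigen processing genes lie from −0.29 to 1.09 with 4 filled points above 0, while the 8 filled points of class II control and the 5 of costimulation lie below 0.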

How the data were processed

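Droplet 3′ single-cell RNA-seq of the 4 libraries was mapped by the authors to mm10 and counted with Cell Ranger (3.0.0 in the methods and in the headers of Experiment 1, 3.1.0 in those of Experiment 2). The authors deposited a matrix of raw UMI counts by gene and barcode, neither normalized nor filtered, and Seurat 3.1 was used in the study after that step. The filter that the study states was applied to all barcodes, and it left more cells in each library than the study lists, most of all in the non-efferocytic library of Experiment 2. Doublets were not called. CPM is a gene's UMIs over all UMIs of a library's cells. Cells are not replicates, so UMIs were summed per library and tested with edgeR 4.0.16 in R 4.3.3 (quasi-likelihood test, TMM, filterByExpr, experiment as a block, Benjamini-Hochberg adjustment over all genes tested). Counts were also simulated with a common spread for all genes and with changes only in genes of many counts. Most of the changed genes were found there. False calls are not given here, and the differing spread of real genes was not simulated. The experiment label marks libraries made together, and the difference between experiments correlated between the groups with r = 0.672 over 7097 genes, which are not independent. DESeq2 1.42.0 was an alternative. The SE is the absolute fitted log2 fold change divided by the square root of its quasi-likelihood F statistic. It is thus derived from the test and is approximate. Whether the libraries came from separate mice is not given, so that p-values measure the spread between these libraries, which may be technical.

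The members and the gene lists were chosen with earlier results of these data known. Named genes are the 8 members, called genes of the pathway lists with a mean of at least 10 CPM, the other class II genes, and the 10 highest and 5 lowest correlated genes. Others are said to be named after their values were seen. H2-Ea, H2-Ea-ps and Ifi30 were not analysed here.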

Additional observations from a re-analysis of the deposited data

Results flagged for a closer look

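In the efferocytic library of Experiment 1, barcodes of at most 100 UMIs, which are not counted as cells, held the 8 genes at 1915 CPM, above the 1879 CPM of the non-efferocytic library of that experiment. In Experiment 2 the efferocytic library was below the non-efferocytic one, at 928 against 1309 CPM. The difference between the experiments was not tested. Groups of 2 libraries are too small for a test of single outlying libraries.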

How the results depend on the processing

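The count of pathway genes called lower was 15 and that of genes called higher was 5. Scaled by UMIs per cell they were 3 and 17, and all genes had a median log2 fold change of 0.60. Over all genes 2761 were called higher and 2636 lower, against 6921 and 586 per cell, and 1847 and 3700 on library totals without TMM, where the median shifted to −0.12. Without a replicate block 7 were lower, when 7.74% of all genes were. The fits that left out a library had no block either. Leaving out each library in turn gave 0 to 12 lower and 0 to 4 higher, with the value of a lone library assumed to vary like the other group. Without efferocytic replicate 2 the count lower was 4, and without either non-efferocytic replicate both counts were 0, when at most 2 of all genes were called, while 2999 and 3494 then had an unadjusted p under 0.05. DESeq2 gave 13 lower and 6 higher, with 10.2% and 14.3% of all genes. Per cell, the log2 fold changes of Icam1, Irf2, Irf8 and Usf1 turned to 0.094, 0.34, 0.12 and 0.068, and the log2 ratio of H2-DMb2 in Experiment 2 to 0.089. The cause is the scale itself, as efferocytic cells held more UMIs.

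The median log2 ratio of the 8 genes was −3.55 and −3.19, and −2.94 and −2.35 per cell. The other settings that kept all 8 genes above 0 moved it by less than the spread between experiments. Taking 10% of every library's UMIs away as free RNA left 6 genes at 0 in Experiment 1 and 4 in Experiment 2, so no median could be given. In efferocytic cells each of these genes was below 10% of its level in barcodes of at most 100 UMIs. The amount removed thus fixed these zeros. An alternative added after seeing the data, taking 1% away, left H2-Eb1 at 0 in Experiment 1 and gave a median of −3.32 in Experiment 2. In Experiment 1 it moved the log2 ratios of H2-Aa to −7.19, of H2-Ab1 to −4.87, of Cd74 to −4.10 and of H2-DMb2 to −2.47. Efferocytic cells there held H2-Eb1 at 0.852% and H2-Aa at 1.10% of their level in barcodes of at most 100 UMIs. The size of these ratios thus depends on how much is taken away, and the part of free RNA in them was not tested. Without the barcodes shared in Experiment 2, also added after seeing the data, the median there was −3.20, and the cells with 10 or more UMIs were 1032 non-efferocytic and 62 efferocytic. The share of cells with a UMI of the 8 genes depended on depth. Thinned to 2000 UMIs it was 27.1, 9.45, 31.9 and 9.28% in the non-efferocytic and efferocytic libraries of Experiment 1 and of Experiment 2, and without thinning 55.8, 44.1, 58.8 and 41.1%.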
